A study of Mus musculus with 6 samples.

Results

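Expression of the enzymes that remove superoxide and peroxides was followed in the retinal pigment epithelium (RPE), the cell layer behind the photoreceptors. The set comprised 10 genes, chosen by name with earlier results of these data known. They were the superoxide dismutases Sod1, Sod2 and Sod3, the catalase gene Cat and the glutathione peroxidases Gpx1, Gpx3 and Gpx4. The others were the peroxiredoxins Prdx1, Prdx3 and Prdx6. Of the 10, 8 were measured, among 18193 genes in all, by 18 probe sets that the platform annotation assigns to exactly 1 gene symbol. Each gene was represented by its brightest probe set, and the other 10 probe sets, which belong to 5 of the genes, serve as a check. The 5 probe sets of Prdx1 also carry a second gene symbol and gave no value for it, and Prdx6 was not analysed here.

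The animals were BALBc mice, an albino strain, and every animal spent 1 week in the dark. The dark-adapted group had no further exposure, and the light-damaged group was then kept for 1.5 h under white fluorescent light at 6000 lux and had its RPE collected 24 h later. Each group held 3 Affymetrix arrays of total RNA. The labels do not give age or sex, or say whether a sample was 1 animal or a pool, so the p-values reflect only how far these samples spread, and that spread may be technical. Precision is limited by the number of arrays.

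As background, superoxide dismutases turn superoxide into hydrogen peroxide, with Sod1 in the cytosol, Sod2 in mitochondria and Sod3 outside the cell. Catalase breaks hydrogen peroxide down in peroxisomes, glutathione peroxidases reduce it with glutathione, and peroxiredoxins do so with thioredoxin as electron donor. The RPE is known for high oxygen exposure and for the daily uptake of lipid-rich outer segments, and is rich in catalase and superoxide dismutases.

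The replicate 1 arrays stood apart from the other 4 in both groups. The 3′ control probe set of Gapdh exceeded the 5′ one by 2.45 and 2.48 in the replicate 1 arrays and by 1.54 to 1.80 in the others, on the log2 scale, a measure that depends on RNA quality and on labelling. The 18S rRNA controls averaged 11.38 and 10.72 there against 12.98 to 13.30. All 11 listed RPE markers were measured, and they ranged from Ttr, at 14.65 to 14.77 on the 6 arrays, and Rpe65, at 13.10 to 14.59, to Best1, at 7.82 to 8.36, which is little above the array medians of 7.43 to 7.48. Photoreceptor transcripts were present in the same samples, with the rod genes Gnat1 at 14.01 to 14.66 and Sag at 14.25 to 14.56. Of 12 measured photoreceptor markers 7 fell with light damage and none rose. Of 15 macrophage and microglia markers 14 rose with no fall among them. These counts use the threshold given below, at which 3.07% of all genes rose and 1.92% fell. No gene of these or the other cell type lists was called in the fit without the block. In bulk RNA, fewer cells of a type and less RNA per cell cannot be told apart.

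The region around the transcription start is shown for 4 of the genes. Sod1 and Sod2 are shown because their windows hold the only matches to either motif searched among the 7 measured members with a window, and Gpx1 and Cat because they had the smallest unadjusted p among the members with a difference above 0 and below 0. Each window runs from 250 bases before to 50 bases after the start, 5′ to 3′ in the direction of the gene, from RefSeq on GRCm38.p6, whose sequence is that of C57BL/6J and not of the strain studied. The motifs were the antioxidant response element core TGACNNNGC, which the transcription factor NRF2 is known to bind, and the palindromic STAT core TTCNNNGAA, both searched on both strands and marked in capitals. Sod1 lies at chr16:90220512-90220811 (+), Sod2 at chr17:13007589-13007888 (+), Gpx1 at chr9:108338830-108339129 (+) and Cat at chr2:103485104-103485403 (−).
Sod1: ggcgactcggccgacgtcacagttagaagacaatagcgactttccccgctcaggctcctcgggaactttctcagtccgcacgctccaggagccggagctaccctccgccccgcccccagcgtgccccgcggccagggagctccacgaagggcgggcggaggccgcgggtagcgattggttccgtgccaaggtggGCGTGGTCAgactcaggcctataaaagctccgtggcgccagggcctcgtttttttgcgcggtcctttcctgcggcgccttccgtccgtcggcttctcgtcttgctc
Sod2: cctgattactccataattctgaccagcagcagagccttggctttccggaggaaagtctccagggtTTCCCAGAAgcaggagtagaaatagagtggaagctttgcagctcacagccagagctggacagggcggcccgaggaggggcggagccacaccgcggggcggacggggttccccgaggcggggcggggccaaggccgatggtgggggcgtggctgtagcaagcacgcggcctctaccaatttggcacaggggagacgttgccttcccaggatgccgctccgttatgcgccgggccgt
Gpx1: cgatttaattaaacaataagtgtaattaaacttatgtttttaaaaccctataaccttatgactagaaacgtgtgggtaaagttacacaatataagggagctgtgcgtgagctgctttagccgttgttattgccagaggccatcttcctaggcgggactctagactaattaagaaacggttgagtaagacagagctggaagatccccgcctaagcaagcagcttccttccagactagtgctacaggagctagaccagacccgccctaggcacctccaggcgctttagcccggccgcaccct
Cat: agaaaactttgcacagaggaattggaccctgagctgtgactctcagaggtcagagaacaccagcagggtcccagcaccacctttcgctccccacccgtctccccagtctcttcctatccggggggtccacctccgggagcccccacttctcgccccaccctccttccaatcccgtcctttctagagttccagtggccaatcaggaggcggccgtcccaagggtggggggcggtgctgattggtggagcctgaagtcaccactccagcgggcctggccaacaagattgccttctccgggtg

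In the Sod1 window the capitals mark GCGTGGTCA, an antioxidant response element core on the opposite strand that begins 56 bases before the start. In the Sod2 window they mark TTCCCAGAA, a STAT core that begins 185 bases before the start. Neither motif was found in the Gpx1 or Cat window, nor in those of Gpx3, Gpx4 and Prdx3, and Sod3 had no window in the table used. Of all 32851 promoter windows of the same length, 12.4% hold the first motif and 8.3% the second. A match is a description of the letters and was not tied to binding.

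The first question was whether transcripts of the enzymes differed after damaging light. Groups were compared with limma across all 18193 genes, with the replicate number as a block and Benjamini-Hochberg adjustment over all genes, and a gene was called at an adjusted p under 0.05. No member was called, where the background was 4.99% of all genes. At an unadjusted p under 0.05 there were 3 of 8, Gpx1, Sod3 and Cat, against a background of 19.0%, and without the block 1 of 8, Sod3, against 5.94%. Without the block limma also called no member over all genes, where it called 0.0495% of them. The median difference of the 8 members was 0.12 on the log2 scale and that of all genes was 0.00. Of the 8, 5 had a difference above 0 and 3 below, where 9084 of all 18193 genes were above 0 and 9104 below. In 5 of 8 the 3 pairs went the same way, against 40.7% of all genes. Each difference given below is the light-damaged value less the dark-adapted one, in log2 units, ± its standard error, from n = 3 arrays in either group.

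**Figure D1:**
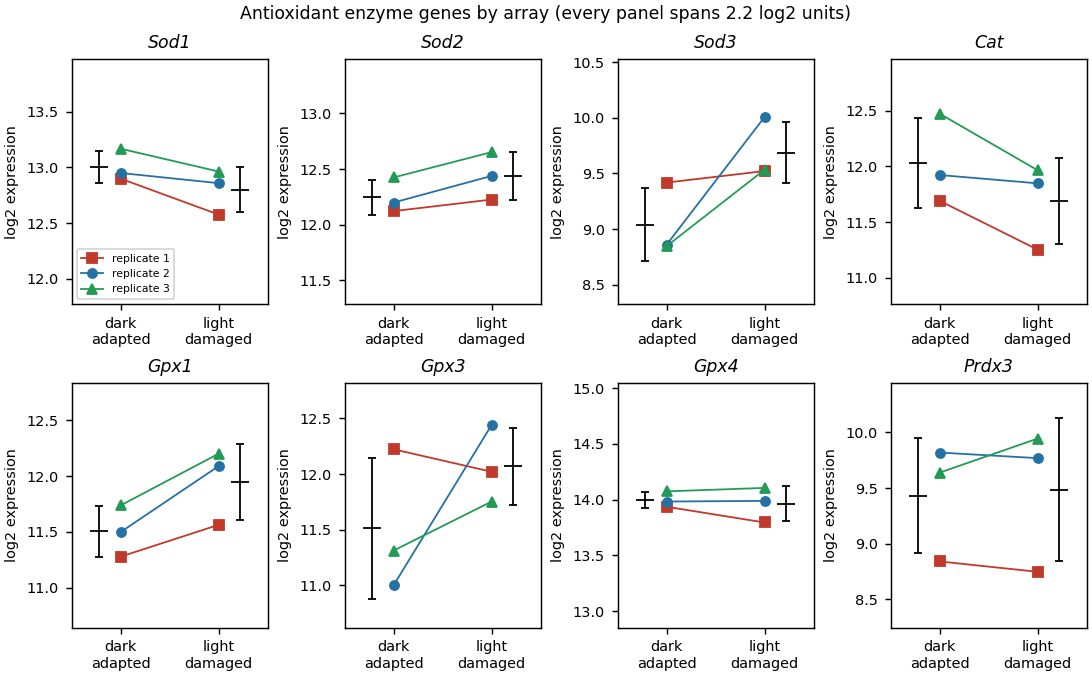
Log2 expression of the 8 measured enzyme genes (one panel each, vertical axis) in dark-adapted and light-damaged RPE (horizontal axis). Coloured points are arrays, lines join arrays of the same replicate number, and black bars show the group mean ± SD (n = 3). The groups are separate for Sod3 alone, whose light-damaged arrays lie at 9.52 to 10.01 and dark-adapted arrays at 8.85 to 9.42.

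Among the superoxide dismutases, the extracellular Sod3 had the largest difference. Its log2 values were 9.42, 8.86 and 8.85 in dark-adapted replicates 1, 2 and 3, and 9.52, 10.01 and 9.53 in the light-damaged ones. Every light-damaged array was above every dark-adapted one, as it was for 6.61% of all genes, and the gap was narrow because dark-adapted replicate 1 lay well above the other dark-adapted arrays. The difference was 0.65 ± 0.19, with a 95% interval of 0.20 to 1.09 (limma adjusted p = 0.122). In pair 1 the difference was 0.10, against 1.15 and 0.69 in pairs 2 and 3. Without both replicate 1 arrays the difference was 0.92 ± 0.13 and Sod3 was called (limma adjusted p = 0.0099). Without replicate 2 it was 0.40 and without replicate 3 it was 0.63, and it was not called in either case (limma adjusted p = 0.278 and 0.331). The second, dimmer Sod3 probe set gave values of 5.60 to 5.85 in dark-adapted and 5.86 to 6.14 in light-damaged arrays, again without overlap. Its difference was 0.29 ± 0.11. Sod3 is known to be made by vascular smooth muscle. Of 11 markers of pericytes and fibroblasts, a list that holds smooth muscle genes, 3 rose and none fell. The 3 were Tagln, Col3a1 and Pdgfra, and the background for a rise was 3.07% of all genes. Above 0 were 9 of the 11, among them Acta2 (0.15) and Rgs5 (0.26), neither of them called. Pdgfrb (-0.22) and Cspg4 (-0.14) were below 0. The summed linear level of the 11 was 26540, 20790 and 20380 in dark-adapted replicates 1, 2 and 3 and 26640 to 28440 in light-damaged arrays. The part of these cells in the Sod3 values was not tested. Of the other lists of cell types, 2 of 7 Müller glia markers rose, Gfap and Vim, while 4 of the 7 were below 0. Among endothelial markers 1 of 8 rose, and among red blood cell markers 1 of 4 fell. Over all genes 3.07% rose and 1.92% fell.

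The copper-zinc enzyme Sod1 read 12.90, 12.95 and 13.17 in dark-adapted RPE and 12.58, 12.86 and 12.96 after light. The light-damaged array was the lower one in each pair, while the groups overlapped. The difference was -0.21 ± 0.09, with an interval of -0.43 to 0.01 (limma adjusted p = 0.296). This probe set is an s_at set, which can bind related transcripts. A probe set of similar brightness gave -0.37 ± 0.15 and was also lower in each pair. The 3 dimmer ones gave 0.10, -0.01 and 0.18, so the Sod1 probe sets did not all share a direction. Of these, the set at 0.10 was higher in pair 1 alone, and the set at 0.18 was dim, at 4.91 to 5.40. The mitochondrial manganese enzyme Sod2 read 12.12, 12.20 and 12.42 in the dark and 12.23, 12.44 and 12.65 after light. It was higher in each pair, by 0.10, 0.24 and 0.23, with overlapping groups. The difference of 0.19 ± 0.09 had an interval of -0.02 to 0.40 (limma adjusted p = 0.314). The other Sod2 probe sets gave 0.08, 0.00 and -0.07, and none of them had an unadjusted p under 0.05.

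Catalase was lower in the light-damaged array of each pair and did not pass. Cat read 11.69, 11.92 and 12.47 in dark-adapted RPE and 11.25, 11.85 and 11.97 in light-damaged RPE. Replicate 1 was the lowest array of both groups. The groups overlapped also among replicates 2 and 3, where light-damaged replicate 3 lay above dark-adapted replicate 2. The difference was -0.34 ± 0.11, with an interval of -0.61 to -0.07 (limma adjusted p = 0.165). The second Cat probe set read 10.88, 11.33 and 11.86 in the dark and 9.67, 11.15 and 11.27 after light. Its difference was -0.66 ± 0.18 (limma adjusted p = 0.119 over all probe sets), and its replicate 1 array of the light-damaged group lay far below the other 5 arrays. The 11 RPE markers were also below 0 in 11 of 11 cases, with a median of -0.37, and their summed linear level was 122300 to 154500 in dark-adapted and 90370 to 120500 in light-damaged arrays. 1 of the 11, Lrat, fell. The part of these markers in the catalase values was not tested.

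Of the glutathione peroxidases, the cytosolic Gpx1 came closest to a call. It read 11.28, 11.50 and 11.74 in dark-adapted and 11.56, 12.09 and 12.20 in light-damaged RPE. The light-damaged array was higher in each pair, by 0.29, 0.59 and 0.46, and only light-damaged replicate 1 fell within the range of the dark-adapted arrays. The difference was 0.45 ± 0.10, or 1.36-fold, with an interval of 0.21 to 0.68 (limma adjusted p = 0.0554). Gpx1 was called without both replicate 1 arrays, at 0.53 ± 0.09 (limma adjusted p = 0.024). Without replicate 2 the difference was 0.38 and without replicate 3 it was 0.44, with limma adjusted p-values of 0.203 and 0.268. It was not called in the fit without the block (limma adjusted p = 0.994), which counts differences between replicates as noise. A single probe set measured Gpx1, so no second one bears on it.

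Gpx3, the secreted glutathione peroxidase, varied most among the dark-adapted arrays. It read 12.22, 11.00 and 11.31 in the dark and 12.02, 12.44 and 11.75 after light. Dark-adapted replicate 1 was as high as the light-damaged arrays, and the 3 pairs gave -0.20, 1.44 and 0.44. The difference was 0.56 ± 0.28, with an interval of -0.10 to 1.22 (limma adjusted p = 0.353). Without both replicate 1 arrays it was 0.94 ± 0.21 and was not called (limma adjusted p = 0.0507), and without both replicate 2 arrays it was 0.12 (limma adjusted p = 0.831), so the size of the Gpx3 difference depended on which pair was included. Gpx4, which reduces lipid hydroperoxides within membranes, read 13.94, 13.98 and 14.07 in the dark and 13.79, 13.99 and 14.10 after light. The arrays of both groups lay close together. For this probe set alone, the interval of the difference, -0.25 to 0.18 around -0.03, leaves out changes larger than these on the log2 scale. Gpx4 is near the top of the scale, where differences can be understated, and on an x_at probe set, which can bind related transcripts. Its second probe set read 11.81, 13.27 and 13.48 in the dark and 11.30, 13.25 and 13.44 after light, so it was low in both replicate 1 arrays. There the light-damaged array was the lower one in each pair. The difference was -0.19 ± 0.12, with a wider interval of -0.48 to 0.10.

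Prdx3, the mitochondrial peroxiredoxin, read 8.84, 9.82 and 9.64 in dark-adapted and 8.75, 9.77 and 9.94 in light-damaged RPE. Replicate 1 was the lowest array in each group, and the pairs gave -0.09, -0.05 and 0.31. The difference was 0.05 ± 0.11, with an interval of -0.21 to 0.32 (limma adjusted p = 0.861). A p that misses the threshold does not show that Prdx3 or Gpx4 stayed the same. The intervals give the range of differences compatible with these arrays.

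**Figure D2:**
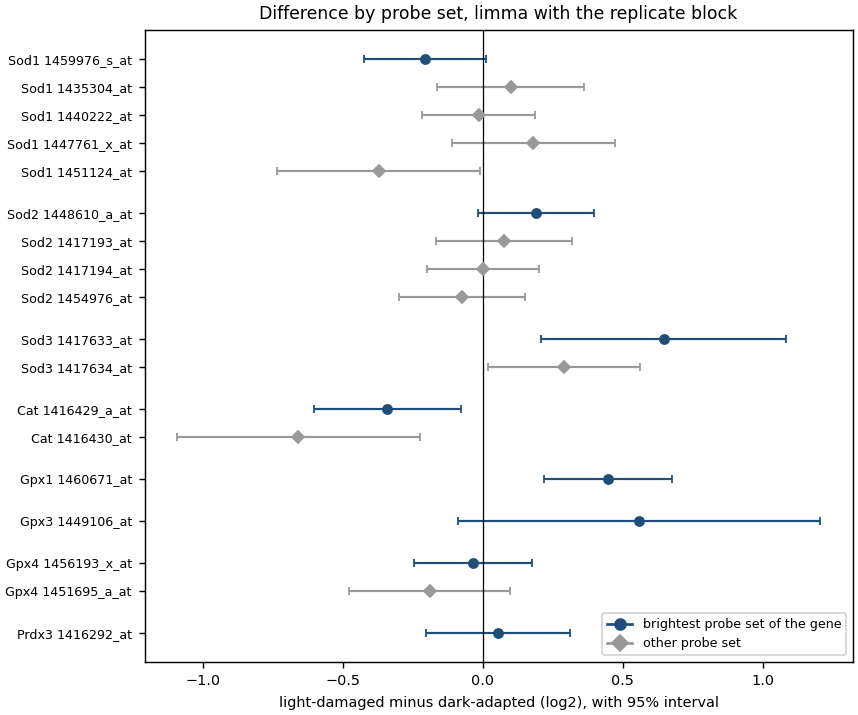
Light-damaged minus dark-adapted difference (log2, horizontal axis) of all 18 probe sets of the 8 genes, with 95% intervals from limma with the replicate block. Blue circles are the brightest probe set of a gene and grey diamonds the others. Both probe sets of Sod3 lie above 0 and both of Cat below it, whereas those of Sod1 lie on either side.

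Across the 10 other probe sets, 6 had the direction of the gene's brightest one and 4 the opposite. These counts include a Sod2 set at 0.00, among the 4, and a Sod1 set at -0.01, among the 6, with almost no difference. 3 had an unadjusted p under 0.05, namely the second sets of Sod3 and Cat and 1 of Sod1, each in the direction of the brightest set. None was called over all probe sets, where the background was 3.77%.

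The members differed in how they varied with the replicate number. Prdx3 was 0.89 and 1.11 lower in replicate 1 than in the mean of replicates 2 and 3, for dark-adapted and light-damaged arrays respectively. Cat, with values of -0.51 and -0.65, and Gpx1, with -0.34 and -0.58, were also lower in replicate 1 of both groups. Sod3 and Gpx3, the secreted enzymes, did the opposite in the dark-adapted group alone, where replicate 1 was higher by 0.56 and 1.07, while in the light-damaged group it was 0.25 and 0.08 lower. The replicate block removes a shift that both arrays of a pair share, and it does not remove one that is present in 1 array. The part of RNA quality in these values was not tested.

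**Figure D3:**
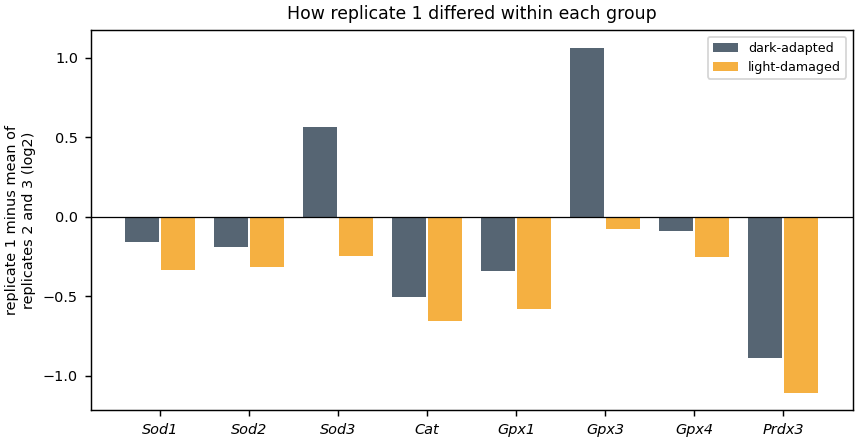
Replicate 1 minus the mean of replicates 2 and 3 (log2, vertical axis) for each gene, as bars for dark-adapted and light-damaged arrays. All genes but Sod3 and Gpx3 are lower in replicate 1 in both groups, and these 2 are higher in the dark-adapted one.

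The related genes were taken from 7 lists of 79 genes, of which 69 were measured, 6 rose and 1 fell. As a share, the background for a rise was 3.07% of all genes and for a fall 1.92%. The lists were chosen with earlier results of these data known, so their counts beside these shares are a description. Of the 6 rises, 5 belonged to the list of enzymes that make superoxide and peroxide, which had 11 measured genes, no fall and a median difference of 0.31. All 5 are parts of the phagocyte NADPH oxidase or its activation. Ncf4, a cytosolic subunit, went from 7.69, 7.33 and 7.39 to 9.63, 8.76 and 8.62, a rise of 2.89-fold (1.53 ± 0.14, limma adjusted p = 0.0045). Each light-damaged array was above each dark-adapted one for all 5, as it was for 6.61% of all genes. The small GTPase gene Rac2 rose 2.16-fold (1.11 ± 0.12), and Cybb, the catalytic membrane subunit, rose 1.94-fold (0.96 ± 0.14). Its partner Cyba rose by 0.70 ± 0.10 and the cytosolic subunit Ncf1 by 0.70 ± 0.09, with limma adjusted p-values of 0.016 and 0.013. The other 6 measured genes of the list did not pass.

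The 5 oxidase genes are expressed by phagocytes, and the markers of macrophages and microglia moved with them. 14 of those 15 markers rose, with a median of 0.93, and their summed linear level was 20840 to 28720 in dark-adapted and 29840 to 43530 in light-damaged arrays. Csf1r was the 1 marker that did not pass, at -0.15. Cd68 read 9.69, 8.75 and 8.98 in the dark and 11.97, 10.93 and 10.85 after light. Of 7 measured neutrophil markers, 2 rose, S100a8 and S100a9. The others were not called, with Csf3r at 0.48, Elane and Camp at 0.08, Ngp at 0.07 and Mpo at -0.10. The summed level of the neutrophil markers was 1167 to 1365 in dark-adapted and 1478 to 2072 in light-damaged arrays. The part of these cells in the oxidase values was not tested. Other probe sets gave smaller values, 0.62 and 0.14 for Cybb, 0.37 and 0.10 for Ncf1 and 0.02 for Rac2. All were dimmer than the one used. The Cybb set at 0.62 was called over all probe sets (limma adjusted p = 0.020), and the others were not. With the median of all probe sets of a gene, Cybb at 0.14 and Ncf1 at 0.37 were not called. All 5 were called without both replicate 1 arrays. Without both replicate 3 arrays Ncf4 and Rac2 were called and the other 3 were not, with limma adjusted p-values of 0.0656 to 0.0943, and without the block none was.

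In glutathione synthesis and reduction, 1 of 8 measured genes rose and none fell. Pgd, an enzyme of the pentose phosphate pathway that supplies NADPH, read 12.09, 11.67 and 11.58 in the dark and 12.56, 12.16 and 12.16 after light. The groups did not overlap, and it rose 1.43-fold (0.51 ± 0.09, limma adjusted p = 0.0269). Its probe set is an x_at set. The other 3 Pgd probe sets gave 0.51, 0.43 and 0.41. Neither Pgd nor Lrp8, described next, was called without both replicate 3 arrays, at limma adjusted p-values of 0.188 and 0.0901, or without the block. Pgd was also not called without both replicate 2 arrays (limma adjusted p = 0.0714). In selenoprotein synthesis, which also holds receptors of the selenium carrier selenoprotein P, 1 of 11 fell and none rose. The receptor gene Lrp8 read 9.61, 9.27 and 9.73 in the dark and 8.68, 8.73 and 8.95 after light, and fell by 0.75 ± 0.11 (limma adjusted p = 0.0154), with other probe sets at -0.55 and -0.11.

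The remaining 4 lists held no called gene, and the 3 genes of smallest unadjusted p are given for each. For comparison, 9084 of all 18193 genes were above 0 and 9104 below. Of the other peroxiredoxins and glutathione peroxidases, 7 of 7 were above 0 with a median of 0.11, led by Gpx7 (0.13), Prdx4 (0.26) and Gpx5 (0.17). In 1 of these 7 were all pairs higher. In the thioredoxin system, 10 of 13 were above 0, with Sesn1 at -0.46, the thioredoxin gene Txn1 at 0.36 and Srxn1, which repairs overoxidised peroxiredoxins, at 0.21. Among genes for metal delivery and peroxisome import, 7 of 11 were below 0, and the metal transporter gene Slc39a14 stood at 0.37, Pex7 at -0.36 and the copper transporter gene Atp7a at 0.24. Of the genes of ferroptosis and lipid peroxide handling, 5 of 8 were above 0, with the phospholipid remodelling gene Lpcat3 at 0.29, Alox5 at 0.17 and Aifm2 at 0.17.

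**Figure D4:**
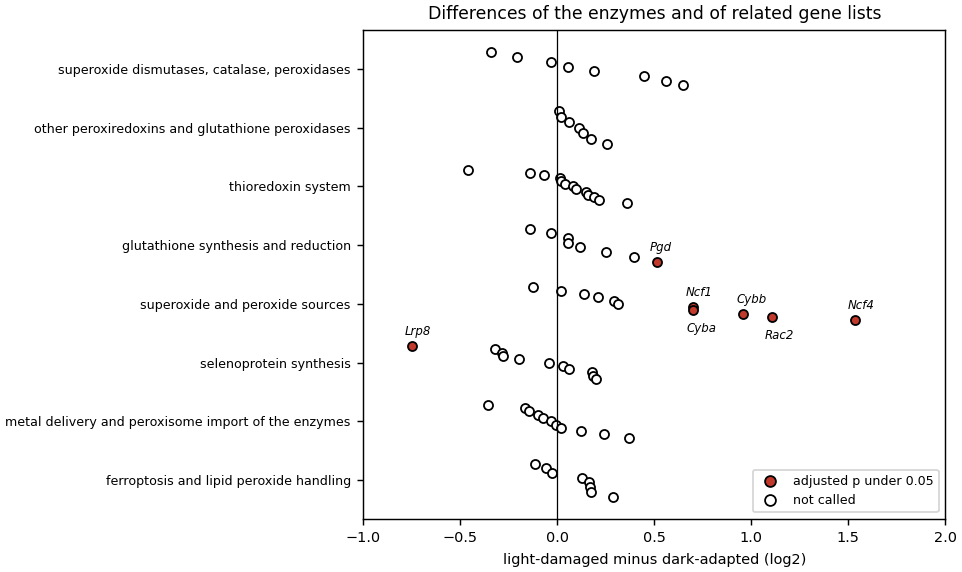
Light-damaged minus dark-adapted difference (log2, horizontal axis) of each measured gene of the enzyme set and of the 7 related lists (vertical axis, genes spread within a list by value). Filled points are genes with an adjusted p under 0.05. The 5 filled points among the sources of superoxide and peroxide lie between 0.70 and 1.53, and no point of the enzyme set is filled.

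For the 3 members with the smallest unadjusted p, the genes with the closest pattern over the 6 arrays were found by Pearson's r. For Gpx1 they were Heatr1, Anp32b and Glud1, with r of 0.995 to 0.999. For Sod3 they were Gda, Kdelr2 and Tmem176a, with r of 0.985 to 0.995. For Cat they were Pts, Hmcn1 and Alas1, with r of 0.997 to 0.999. These are the highest of 18192 values each, over arrays that share the replicate 1 difference, and are given as a description.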

How the data were processed

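RMA, a method that subtracts background, puts arrays on a common scale and combines the probes of a set, is named in the submitters' processing notes for the deposited log2 values. Its version and settings are not given. The log2 scale was read from the values, which ran from 3.72 to 14.82. Of 45101 rows, 64 were control probe sets. Probe sets with 1 symbol in the platform annotation numbered 34945, and the 932 with several were left out. The brightest probe set by the mean over all arrays represented each of 18193 genes, with no filter on dim genes.

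The comparison used limma 3.58.1 (R 4.3.3, lmFit and eBayes, two-sided) with the replicate number as a block and 2 residual degrees of freedom, since the gene set's definition pairs arrays by number. The labels do not say what a number stands for. Once group means were subtracted, arrays sharing a number correlated across genes at 0.89, 0.62 and 0.86. Replicate 1 stood apart in both groups, so arrays numbered 2 and 3 share part of their deviations however they are paired. With numbers 2 and 3 crossed, the values were 0.65 (dark 2, light 3) and 0.61 (dark 3, light 2). Thus 0.62 and 0.86 cannot decide how these arrays pair. The change from replicate 2 to 3, which leaves replicate 1 out, had a between-group correlation of 0.33, positive but weaker. That part of the pairing is less certain. The code was tested on simulated data. The members and lists were chosen with earlier results of these data known. From the related lists, the text names each called gene, or the 3 with the smallest unadjusted p where none was called. Alternatives covered the block, normalization, a filter, a pseudocount, probe set choice, limma settings, array weights and left-out replicates.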

Additional observations from a re-analysis of the deposited data

How the results depend on the processing

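Each comparison was repeated under 19 alternatives. The count of members called was 0 with all arrays in limma and also in the fit without the replicate block. It was 1 with quantile normalization and with the median of all probe sets, Gpx1 in both, 2 with array weights, and 0 to 2 when replicates were left out, with Sod3 and Gpx1 called without both replicate 1 arrays. Without those arrays and without the block, Sod3 was the 1 member called. Over all genes the share called was 4.99% with all arrays, 5.01% with quantile normalization, 4.74% with the median of probe sets, 10.3% with array weights and 6.84% without both replicate 1 arrays. The count of related genes called was 7 with all arrays, 0 with no replicate block, 11 with array weights, and 0 to 9 when replicates were left out, with 2 without both replicate 3 arrays. Cat, Gpx1, Gpx3, Sod2 and Sod3 stayed on the same side of 0 under all 19, though Sod2 was 0.0012 with the median of all probe sets, against 0.19. Sod1 turned to 0.10 with the median of all probe sets. Gpx4, close to 0, turned to 0.0038 with array weights, to 0.018 without replicate 1, with or without the block, and to 0.0033 and 0.049 without dark-adapted replicate 3 and light-damaged replicate 1 in the fit with no block. With the block and a pair left out it ranged from -0.068 to 0.018. Prdx3 ranged from -0.072 to 0.13 with a pair left out, turning without replicate 3, and turned to -0.24, -0.087 and -0.17 without dark-adapted replicate 1, light-damaged replicate 2 and light-damaged replicate 3 with no block. The cause of these shifts was not tested. With 3 arrays a group and 2 residual degrees of freedom, the fits lean on the variance shared across genes, more so with a pair left out. The values carry no detection calls, so dim probe sets cannot be told from background.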
